A study of Mus musculus with 4 samples.

Results

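The genes described here encode the nuclear subunits of the mitochondrial respiratory chain and ATP synthase, with some of their assembly factors, in primary keratinocytes of mouse tail skin. They were chosen by symbol alone, as genes whose name in the platform annotation begins with Ndufa, Ndufb, Ndufc, Ndufs, Ndufv, Sdh, Uqcr, Cox4 to Cox8 or Atp5. The rule found 87 of the 12393 genes on the array, and 83 of them were among the 7463 genes that counted as measured. Measured means that at least 1 of a gene's 4 values reached 20.04 intensity units, the median over all probe sets and arrays. The 4 members that stayed below that level were Cox4i2, Cox7a1, Cox7c and Cox8b. The symbol rule itself used no expression value, but the set was chosen with earlier results of these data known. The level filter and the choice of 1 probe set per gene did use these values.

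The cells came from C57BL/6 mice that all carried a floxed Prdm1 gene, whose product Blimp-1 is a transcriptional repressor. Control cells had no CreER, a Cre recombinase that 4-hydroxytamoxifen (4OHT) activates, and CKO cells had it. Cells of each genotype were kept with 4OHT or with its solvent ethanol (EtOH) between day 1 and day 3 and harvested on day 5. The groups are thus control EtOH and control 4OHT, which lack the recombinase, and CKO EtOH and CKO 4OHT, of which only the latter had the recombinase together with its inducer. Which promoter drives CreER, and how many mice stand behind a culture, is not stated in the labels. Each group had 1 array, so there was no estimate of error, no test was run, and every difference below lies between 2 arrays. Mice with CreER and mice without it supplied the cells, so genotype and animal cannot be told apart, and the comparisons share arrays with one another.

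The targeted gene, Prdm1, measured 20.7 (EtOH) and 52.4 (4OHT) in control cells and 17.0 (EtOH) and 6.43 (4OHT) in CKO cells. It was lowest in the cells labelled as deleted, but where its probe set lies relative to the deleted part is not stated. Of 9 keratinocyte markers on the array 8 were measured, and the summed intensity of the markers was 14499 to 14914 on the 4 arrays. Krt14 alone reached 6663, and the sum hides single markers that differed. Their log2 differences ran from -0.28 to 0.80 for CKO 4OHT minus CKO EtOH and from -0.35 to 0.80 for CKO 4OHT minus control 4OHT. For control 4OHT minus control EtOH they ran from -0.66 to 0.32. Sums over the markers of other cells were 95.0 to 102 for fibroblasts (1 of 10 measured), 127 to 155 for melanocytes (4 of 7, highest in CKO 4OHT), 96.1 to 105 for immune cells (2 of 9), 39.5 to 49.6 for endothelium (0 of 6) and 77.8 to 84.9 for muscle (0 of 8). The part of these cells in any difference was not tested, and in bulk RNA a change in the mix of cells and a change per cell cannot be told apart.

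The respiratory chain sits in the inner mitochondrial membrane and passes electrons from NADH and succinate to oxygen. Complex I takes electrons from NADH and complex II from succinate, both hand them to ubiquinone, complex III passes them on to cytochrome c, and complex IV reduces oxygen. Complexes I, III and IV pump protons, and ATP synthase uses the proton gradient to make ATP. The complexes join products of the nuclear genes followed here with subunits encoded by mitochondrial DNA, except complex II, which is wholly nuclear. In the epidermis, mitochondrial respiration and the reactive oxygen it releases are known to take part in keratinocyte differentiation.

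Promoters of these genes are known for sites of nuclear respiratory factor 1 (NRF-1), of the ETS factor GABP, and of YY1. RefSeq promoter windows of build GRCm38.p6, from 250 bases before to 50 bases after the start of the gene, were found for 73 of the 87 members. The letters GCATGCGC, the core of the NRF-1 site, stood on either strand in 11 of the 73 (15.1%), against 3.05% of all 27025 genes with a window. The ETS letters CCGGAAGT stood in 5 (6.85%, against 4.31%) and the YY1 letters AAGATGGC in 9 (12.3%, against 3.19%). At least 1 of these stood in 24 members (32.9%, against 9.91% of all genes). A match describes letters and is no evidence that a factor binds there. The 150 bases before the start are shown for 4 members at the ends of the range between the CKO arrays: Sdhb (chr4:140961121-140961270, plus strand) and Ndufa6 (chr15:82354292-82354441, minus strand) among the lowest, and Ndufaf4 (chr4:24897933-24898082, plus strand) and Sdhaf1 (chr7:30322376-30322525, minus strand) among the highest. Capitals mark matches to the NRF-1 core. In Ndufaf4 the match on one strand overlaps one on the other, because the longer site reads alike on both strands. A further match to the core in its window lies past the start of the gene, outside the bases shown. Sdhaf1 has none of the 3 motifs in its window. Nor have Ndufaf3, the lowest member, and Cox6b2 and Ndufb1, also among the highest, which are not shown. The sequences shown thus hold the core more often than the members at large.
Sdhb: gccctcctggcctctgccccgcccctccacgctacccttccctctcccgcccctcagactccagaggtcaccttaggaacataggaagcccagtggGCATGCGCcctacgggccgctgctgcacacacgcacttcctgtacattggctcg
Ndufa6: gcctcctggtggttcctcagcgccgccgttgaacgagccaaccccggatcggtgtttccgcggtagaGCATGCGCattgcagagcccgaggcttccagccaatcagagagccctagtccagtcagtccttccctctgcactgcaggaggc
Ndufaf4: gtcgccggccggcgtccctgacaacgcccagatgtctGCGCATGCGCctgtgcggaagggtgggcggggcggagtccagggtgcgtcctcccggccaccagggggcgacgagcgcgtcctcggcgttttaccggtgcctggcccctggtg
Sdhaf1: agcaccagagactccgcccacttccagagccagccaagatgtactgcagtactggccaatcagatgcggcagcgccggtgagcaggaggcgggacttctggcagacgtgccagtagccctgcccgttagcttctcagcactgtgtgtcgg
Ndufaf4 and Sdhb hold the same core and lay at opposite ends of the range. Between the CKO arrays (CKO 4OHT minus CKO EtOH), the 11 members with the NRF-1 core, all measured, had a median log2 difference of -0.15 (range -0.52 to 0.42), and the 59 measured members with a window and no such core had -0.03. The medians were -0.10 and 0.01 between the 4OHT arrays, -0.12 and -0.11 between the control arrays, and -0.02 and -0.04 between the EtOH arrays. With and without the YY1 letters they were -0.07 and -0.02 between the CKO arrays, and -0.11 and 0.01 between the 4OHT arrays. Of the 9 members with YY1 letters 8 were below 0 in each, where 48.6% and 47.8% of all measured genes were. With and without the ETS letters the medians were 0.09 and -0.07 between the CKO arrays, and 0.01 and -0.01 between the 4OHT arrays.

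As a group, the respiratory chain genes differed little among the 4 cultures, and they spread less than the measured genes at large. The highest and the lowest array of a member lay a median of 1.22-fold apart, against 1.30-fold over all measured genes. For 74 of the 83 members (89.2%) the range over the arrays stayed within 1.5-fold, against 76.8% of all measured genes. The members are also bright genes, with a median intensity of 503 against 77.6 over all measured genes, and the part of signal level in their narrow range was not tested. The 9 members beyond it were Sdhaf1 (2.02-fold), Ndufa12 (1.76), Cox6b2 (1.61), Sdhaf2 (1.60), Uqcrc2 (1.57), Ndufs8 (1.54), Ndufaf3 (1.51), Ndufaf5 (1.51) and Ndufaf7 (1.51). Of these 9, 5 are assembly factors, which help to build a complex without staying in it.

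**Figure D1:**
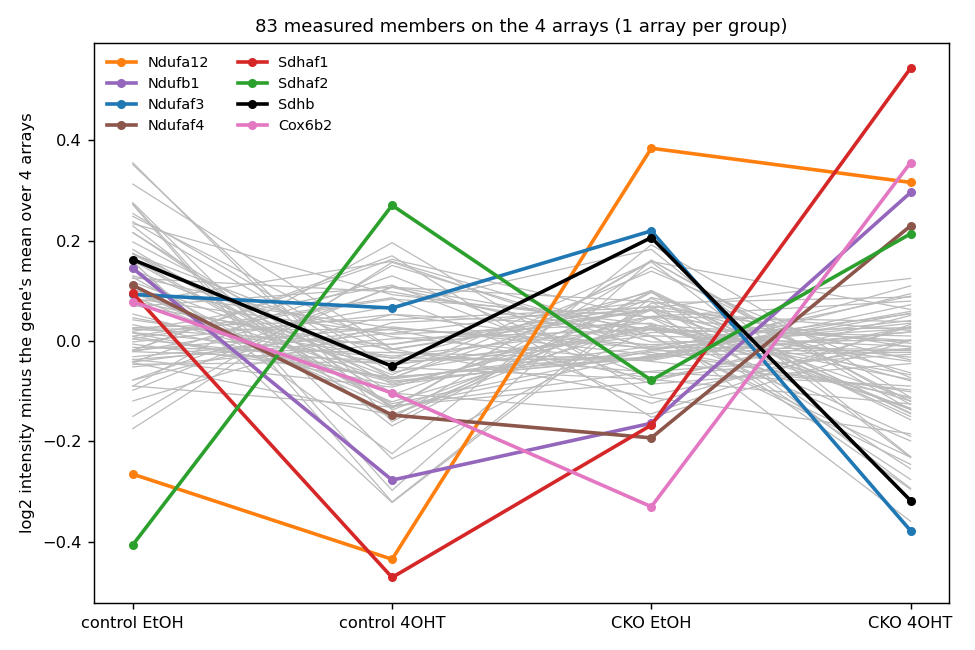
Log2 intensity of each of the 83 measured members on the 4 arrays, minus the gene's own mean over the arrays; each line is a gene, lines join separate cultures and not a time course, and 8 named genes are coloured. The grey lines stay close to 0, while Sdhaf1 reaches its highest value in CKO 4OHT and Ndufa12 lies higher on both CKO arrays than on both control arrays.

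Each array was the highest for some members and the lowest for others. Control EtOH was the highest array for 32 members (38.6%, against 29.4% of all measured genes), control 4OHT for 18 (21.7%, against 23.9%), CKO EtOH for 18 (21.7%, against 15.1%) and CKO 4OHT for 15 (18.1%, against 31.6%). CKO 4OHT was the lowest array for 31 members (37.3%, against 31.1%), control 4OHT for 29 (34.9%, against 30.8%), CKO EtOH for 12 (14.5%, against 17.5%) and control EtOH for 11 (13.3%, against 20.6%). Control EtOH was thus the array with the most highest values among the members, and the 4OHT arrays had the most lowest values, as they had among all measured genes. The steps were small: the median member ranged over 0.29 on the log2 scale.

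Setting CKO 4OHT against CKO EtOH compares inducer and solvent in cells that carry CreER. In this pair the activation of CreER and other effects of the drug cannot be told apart. Here and below, higher or lower means at least 1.5-fold (0.58 on the log2 scale) between 2 arrays. Sdhaf1 and Cox6b2 were higher and Ndufaf3 was lower in CKO 4OHT, that is 2 members higher where 5.71% of all measured genes were and 1 lower where 5.48% were. The median log2 difference of the members was -0.05 (middle 50% from -0.22 to 0.06), against 0.01 over all measured genes (-0.19 to 0.21). A difference below 0 was seen in 50 of 83 members (60.2%), against 48.6% of all measured genes. With each array centred on the median of the measured genes, 55 members were below 0, and the medians were -0.08 for the members and -0.02 for all. The members spread less, with a standard deviation over genes of 0.23 against 0.44, and 70 of 83 (84.3%) differed by less than 0.32 on the log2 scale, against 69.6%.

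The 4OHT arrays of both genotypes set cells with and without CreER side by side under the same drug. Sdhaf1 and Ndufa12 were higher in CKO 4OHT (6.69% of all measured genes were), and 0 members were lower (6.07% of all). At a threshold of 0.32 the counts were 6 members higher and 6 lower, and 71 of 83 (85.5%) stayed within it, against 65.6% of all measured genes. The median was -0.01, against 0.01 over all measured genes, and 45 members (54.2%) were below 0, against 47.8%. Centring made this 53 members, with medians of -0.05 for the members and -0.02 for all. The standard deviation over members was 0.24, against 0.47 over all genes.

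The comparison of control 4OHT with control EtOH shows the drug in cells without the recombinase. Sdhaf2 was higher (3.95% of all measured genes were) and Ndufaf7 was lower (3.91% were) in control 4OHT. The members lay below 0 in 58 cases (69.9%), against 56.6% of all measured genes, and their median was -0.09, against -0.04. After each array was centred on the median of the measured genes, 49 members lay below 0 in place of 58. The medians were then -0.04 for the members and 0.01 for all measured genes, whose share below 0 after centring was not counted. The shares below 0 on the control arrays thus moved with small shifts of whole arrays.

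The comparison of CKO EtOH with control EtOH shows the genotypes with the solvent alone, without the inducer. Ndufa12 was higher in CKO EtOH (0.59% of all measured genes were), and 0 members were lower (0.777% were). The median was -0.03 for the members and for all measured genes. Below 0 lay 51 members (61.4%, against 56.2%), or 40 after centring. Between these cultures of different mice 77 members (92.8%) differed by less than 0.32, against 87.8% of all measured genes.

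The difference of the drug effects subtracts the log2 difference of 4OHT and EtOH in control cells from that in CKO cells. Sdhaf1, Ndufb1, Cox6b2 and Ndufaf4 were higher by this measure, 4 of 83, where 11.2% of all measured genes were. 0 members were lower, where 8.54% of all were. The median was 0.05 for the members and 0.04 for all genes, and 39 members (47.0%) were below 0, against 45.3%, or 48 after centring. A difference of differences adds the error of 4 arrays, none of which could be estimated.

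**Figure D2:**
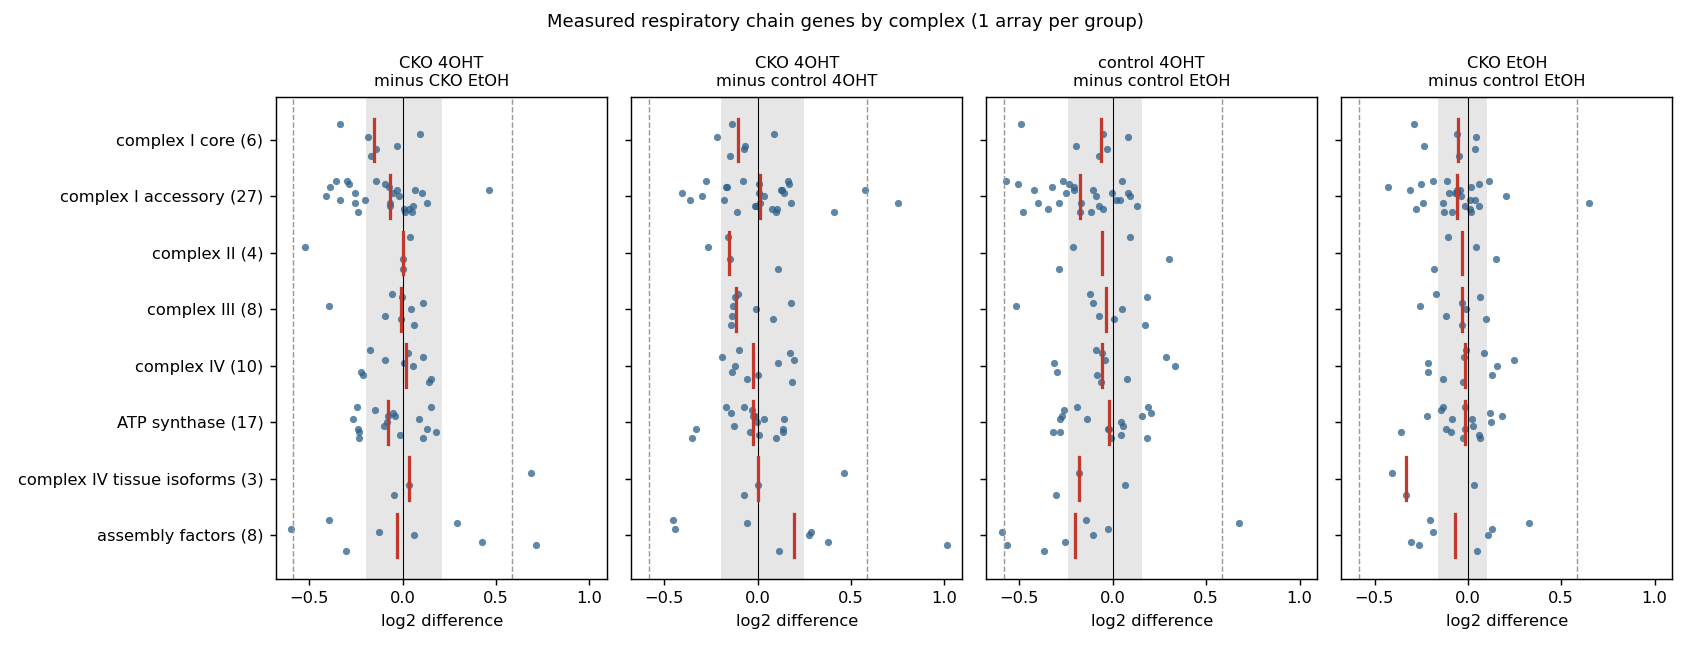
Log2 differences of the 83 measured members in the 4 comparisons of array pairs, by complex, with the number of genes in brackets. Points are genes, red ticks are medians, the grey band holds the middle 50% of all measured genes, dashed lines mark 1.5-fold, and Cox7a2l is drawn with complex IV. Most subunits lie inside or near the grey band, and the assembly factors run from -0.60 to 0.71 between the CKO arrays and from -0.30 to 0.33 between the EtOH arrays.

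Complex I had 33 subunits measured, 6 of them core subunits, which carry the flavin, the iron-sulphur clusters and the path of the electrons. No core subunit differed by 1.5-fold in any pair of arrays compared. Their medians were -0.16 between the CKO arrays, -0.11 between the 4OHT arrays, -0.06 between the control arrays and -0.05 between the EtOH arrays. Ndufv2, an iron-sulphur subunit of the NADH-oxidising arm, measured 658 (EtOH) and 645 (4OHT) in control cells and 677 (EtOH) and 613 (4OHT) in CKO cells. Its 4 values lay within 1.10-fold. Ndufs8, which holds 2 iron-sulphur clusters near the quinone site, measured 727, 518, 594 and 470 in the same order of arrays, highest in control EtOH and lowest in CKO 4OHT. It had 6 probe sets, and between the control arrays they gave -0.49 for the brightest and -0.40 to 0.20 for the other 5.

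The 27 accessory subunits of complex I surround the core and stabilise it. Their medians were -0.07, 0.01, -0.17 and -0.06 in the 4 comparisons in the order above, and 21 of the 27 were below 0 between the control arrays, where 56.6% of all measured genes were. Ndufa13, also known as GRIM-19 and linked to cell death and STAT3 signalling, measured 1086 (EtOH) and 731 (4OHT) in control cells and 1005 (EtOH) and 817 (4OHT) in CKO cells. Both 4OHT arrays were below both EtOH arrays, by -0.57 in control cells and -0.30 in CKO cells, short of 1.5-fold. Ndufa5, which belongs to the arm that reaches into the matrix, measured 237, 166, 199 and 187 in the same order, with -0.51 between the control arrays. Ndufa7, another subunit of the matrix arm, measured 1015, 980, 1024 and 1031 and so lay within 1.05-fold.

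Some accessory subunits had their lowest value in CKO 4OHT, as had 37.3% of all measured members and 31.1% of all measured genes. Ndufa6, a LYR-motif protein that sits beside the acyl carrier protein Ndufab1, measured 205 (EtOH) and 219 (4OHT) in control cells and 236 (EtOH) and 178 (4OHT) in CKO cells. Ndufa9, which helps to hold the junction of the matrix and membrane arms, measured 472, 485, 476 and 377.3 in the same order. Ndufv3, of the NADH-oxidising arm, measured 365, 386, 348 and 292, and each of these genes had a single probe set. For each of the 3 the CKO 4OHT array stood below the other 3 arrays, by -0.33 to -0.41 against CKO EtOH for Ndufa6 and Ndufa9 and -0.26 for Ndufv3, none of which reaches 1.5-fold. Ndufb11, also lowest in CKO 4OHT, measured 731, 609, 643 and 502 in the same order, with -0.36 against CKO EtOH. Its further probe sets were lowest there too and gave -0.43 and -0.75, the latter past 1.5-fold.

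Ndufb1, a small subunit of the membrane arm, went the other way. It measured 36.4 (EtOH) and 27.1 (4OHT) in control cells and 29.4 (EtOH) and 40.4 (4OHT) in CKO cells. With 4OHT its log2 difference was -0.42 in control cells and 0.46 in CKO cells, which makes a difference of the drug effects of 0.88. Its values lie near the level filter, where RMA compresses differences, and it had 1 probe set. Ndufb8, often used as a blot marker of assembled complex I, measured 544, 434, 405 and 386 in the same order, so that control EtOH stood above the other arrays (-0.43 between the EtOH arrays).

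Ndufa12 is an accessory subunit of the matrix arm related to an assembly factor. By representing probe sets, it and the tissue isoform Cox6b2 described below were the only subunits past 1.5-fold in the 4 pairs of arrays compared. The brightest probe set of Ndufa12 measured 390 (EtOH) and 347 (4OHT) in control cells and 612 (EtOH) and 583 (4OHT) in CKO cells. Both CKO arrays were above both control arrays, by 0.65 with EtOH (1.57-fold) and 0.75 with 4OHT (1.68-fold), and 4OHT made -0.07 in CKO cells. The other bright probe sets did not share this step. They gave -0.19 and -0.32 between the EtOH arrays, and 0.02 and 0.31 between the 4OHT arrays. The brightest is of the _x_at type and the other bright ones are of the _s_at and _x_at types, all of which can also bind other transcripts. With all its probe sets averaged, a dim one below the level filter included, Ndufa12 gave 0.04 (EtOH arrays) and 0.24 (4OHT arrays).

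Of the 5 assembly factors of complex I in the set, 2 passed 1.5-fold, each in 1 of the 4 pairs of arrays. Ndufaf3, which acts early in building the matrix arm together with Ndufaf4, measured 81.4 (EtOH) and 79.9 (4OHT) in control cells and 88.9 (EtOH) and 58.7 (4OHT) in CKO cells. CKO 4OHT alone was low, by -0.60 against CKO EtOH (1.51-fold lower) and -0.44 against control 4OHT. Ndufaf4 measured 112, 93.7, 90.8 and 122 in the same order. Its difference between the CKO arrays was 0.42, and its second, dimmer probe set gave 0.63, so the partners Ndufaf3 and Ndufaf4 lay on opposite sides of 0 there.

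Ndufaf7, a methyltransferase that modifies a core subunit, measured 56.4 (EtOH) and 37.4 (4OHT) in control cells and 49.6 (EtOH) and 45.5 (4OHT) in CKO cells. It was 1.51-fold lower with 4OHT in control cells (-0.59), a call that was lost after centring (-0.54). Ndufaf5, which hydroxylates a core subunit, measured 52.6, 47.7, 45.8 and 34.9 in the same order and was lowest in CKO 4OHT, by -0.39 and -0.45 against CKO EtOH and control 4OHT. Ndufaf1, a factor for the membrane arm, measured 97.0, 75.1, 100 and 81.2. Both 4OHT arrays lay below both EtOH arrays, by -0.37 and -0.30, within 1.5-fold.

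Complex II, succinate dehydrogenase, also serves the citric acid cycle. Its 4 subunits had medians of 0.00 between the CKO arrays, -0.15 between the 4OHT arrays, -0.06 between the control arrays and -0.03 between the EtOH arrays, and 0 of them passed 1.5-fold. Sdhb, the iron-sulphur subunit, measured 576 (EtOH) and 497 (4OHT) in control cells and 594 (EtOH) and 413 (4OHT) in CKO cells. It was lowest in CKO 4OHT, with -0.52 against CKO EtOH and -0.27 against control 4OHT. Sdha, the flavoprotein that oxidises succinate, measured 258, 212, 228 and 228 in the same order, and its values on the CKO arrays differed by 0.00 (-0.17 in its second probe set). The membrane anchors Sdhc (129, 159, 143 and 143) and Sdhd (300, 319, 279 and 287) both had their highest value in control 4OHT, by 0.30 and 0.09 against control EtOH. Their second probe sets gave -0.14 and -0.13 there, so neither step was shared by both probe sets of its gene.

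Complex II had 3 assembly factors, of which Sdhaf1 gave the widest difference among the 83 members in the comparisons of CKO 4OHT. Sdhaf1, a LYR-motif protein that helps to insert iron-sulphur clusters into Sdhb, measured 39.6 (EtOH) and 26.7 (4OHT) in control cells and 33.0 (EtOH) and 54.0 (4OHT) in CKO cells. CKO 4OHT was the highest array and control 4OHT the lowest. Sdhaf1 was 1.64-fold higher in CKO 4OHT than in CKO EtOH (0.71) and 2.02-fold higher than in control 4OHT (1.02), the only difference of 2-fold between 2 arrays compared among the 83 members. In control cells 4OHT made -0.57, so the difference of the drug effects was 1.28. Sdhaf1 is dim and had 1 probe set, so no second measurement bears on it, and the Sdhb transcript, whose protein it serves, was at its lowest on the array where Sdhaf1 was at its highest.

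Sdhaf2, which attaches the flavin to Sdha, measured 133 (EtOH) and 213 (4OHT) in control cells and 167 (EtOH) and 205 (4OHT) in CKO cells. It was higher by 0.68 with 4OHT in control cells (1.60-fold), and 4OHT made 0.29 in CKO cells. Its second probe set was flat, with 46.6, 46.9, 45.0 and 45.0 and a difference of 0.01 between the control arrays. Sdhaf4, which guards the free flavoprotein before assembly, measured 106, 98.2, 114 and 119 in the same order, within 1.21-fold.

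**Figure D3:**
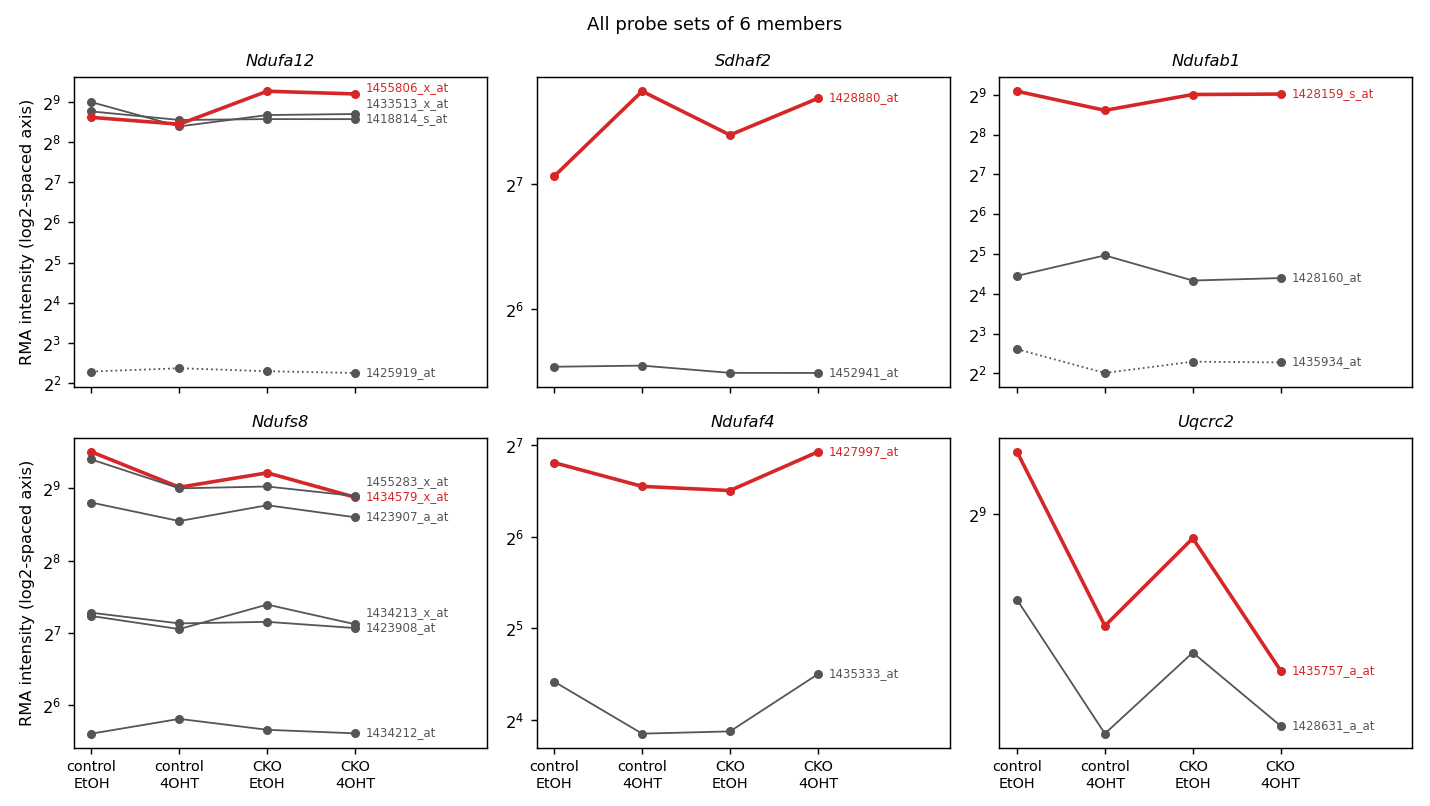
Intensity of every probe set of 6 members on the 4 arrays, on a log2-spaced axis that differs between panels, with the probe set that represents the gene in red and those below the level filter dotted. The probe sets of Ndufaf4 and of Uqcrc2 run in parallel, while those of Ndufa12, Sdhaf2 and Ndufab1 differ in shape.

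Complex III had 8 subunits, 0 of which passed 1.5-fold in a comparison. Their medians were -0.01, -0.11, -0.03 and -0.03 between the CKO, 4OHT, control and EtOH arrays. Uqcrb, which binds near the quinone site, measured 2985 (EtOH) and 2834 (4OHT) in control cells and 2756 (EtOH) and 2577 (4OHT) in CKO cells, all within 1.16-fold, and its second probe set gave -0.28 between the CKO arrays, where this one gave -0.10. The core proteins, which face the matrix, differed from each other in size of step. Uqcrc1 measured 813, 747, 722 and 694 in the same order, and Uqcrc2 582, 407, 487 and 371. Uqcrc2 lay below its EtOH value on both 4OHT arrays, by -0.52 in control cells and -0.39 in CKO cells, and its second probe set gave -0.40 and -0.22.

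Complex IV, cytochrome c oxidase, had 10 members expressed in most tissues, of which 9 were measured. Their medians were 0.01, 0.00, -0.07 and -0.02 in the 4 comparisons, and none passed 1.5-fold. Cox5b, a zinc-binding subunit on the matrix side, measured 2640 (EtOH) and 2145 (4OHT) in control cells and 2276 (EtOH) and 1950 (4OHT) in CKO cells. It was highest in control EtOH, and 4OHT made -0.30 in control cells and -0.22 in CKO cells. Its 4 other measured probe sets gave -0.24 to 0.13 in control cells and -0.27 to 0.10 in CKO cells, so the sign was not shared by all. Cox5a, which binds a thyroid hormone derivative, measured 898, 873, 1067 and 999 in the same order, but its other probe sets gave -0.24 and -0.28 between the EtOH arrays, where this one gave 0.25.

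Ndufa4 carries a complex I name from its first isolation and is now counted with complex IV. It measured 727 (EtOH) and 886 (4OHT) in control cells and 718 (EtOH) and 775 (4OHT) in CKO cells, highest in control 4OHT (0.29 between the control arrays). Cox7a2l, which joins complexes III and IV into supercomplexes, measured 684, 861, 762 and 791 in the same order, again highest in control 4OHT (0.33). The other measured probe sets of Cox7a2l were highest in CKO EtOH and gave 0.00 and -0.04 between the control arrays, and -0.12 and -0.28 between the CKO arrays, where the printed one gave 0.05.

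Several subunits of complex IV come as isoforms that mark tissues or conditions. None of the common forms passed 1.5-fold. Cox4i1 measured 1316 (EtOH) and 1258 (4OHT) in control cells and 1292 (EtOH) and 1426 (4OHT) in CKO cells. In the same order, Cox6a1 measured 2363, 2223, 2346 and 2077, Cox6b1 1883, 1513, 1626 and 1633, Cox7a2 1328, 1278, 1409 and 1439, and Cox8a 506, 534, 461 and 513. Further measured probe sets of Cox6a1, Cox6b1, Cox7a2 and Cox8a gave differences between -0.22 and 0.18 in the 4 comparisons. Of the alternative forms, Cox4i2, a lung form also known to respond to hypoxia, lay at 8.80 to 12.4, the muscle form Cox7a1 at 4.78 to 6.40 and the muscle form Cox8b at 14.5 to 16.9. These 3 did not reach the level filter on any array. The heart and muscle form Cox6a2 measured 34.1, 27.6, 27.1 and 26.2, and the testis form Cox8c 46.8, 49.0, 47.9 and 49.0.

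Cox6b2, known from testis, was the isoform that passed 1.5-fold. It measured 20.2 (EtOH) and 17.8 (4OHT) in control cells and 15.2 (EtOH) and 24.5 (4OHT) in CKO cells. It was 1.61-fold higher in CKO 4OHT than in CKO EtOH (0.69), but these values lie around the level filter of 20.04, and a pseudocount of 16 made the difference 0.37. Cox7c, an ordinary subunit of complex IV in all tissues, was dim in both of its probe sets (6.48 to 7.74 in the brighter), so the array gave no usable measure of it.

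ATP synthase had 5 members of the F1 head, which makes ATP, and 12 of the stalks and the membrane part. None of the 17 passed 1.5-fold. The F1 members had a median of -0.24 between the CKO arrays, with 4 of 5 below 0, where 48.6% of all measured genes were. This rests on the probe sets chosen: Atp5d, also of the head, gave -0.25 there, but its second probe set gave 0.13. The F1 medians were -0.07, -0.14 and -0.08 between the 4OHT, control and EtOH arrays. Atp5b, the catalytic beta subunit, measured 1889 (EtOH) and 1566 (4OHT) in control cells and 1622 (EtOH) and 1536 (4OHT) in CKO cells, highest in control EtOH. Atp5a1, the alpha subunit, measured 1332, 1510, 1391 and 1182 in the same order and was lowest in CKO 4OHT, by -0.24 and -0.35 against CKO EtOH and control 4OHT. Its second probe set gave -0.43 and -0.36 there, yet -0.29 between the control arrays where the first gave 0.18.

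The stalk and membrane subunits had medians of -0.05, -0.01, 0.02 and 0.00. Atp5h, of the peripheral stalk, measured 722 (EtOH) and 743 (4OHT) in control cells and 753 (EtOH) and 746 (4OHT) in CKO cells, within 1.04-fold, while its second probe set gave -0.24 between the 4OHT arrays. Atp5g1 and Atp5g3 encode the same c subunit of the rotor ring with different import signals. Atp5g3 measured 1585, 1636, 1724 and 1629 in the same order, and Atp5g1 432, 346, 336 and 380. Atp5g1 was highest in control EtOH (-0.36 between the EtOH arrays and -0.32 between the control arrays), and Atp5g3 stayed within 1.09-fold.

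Assembly factors and structural subunits differed in spread on each pair of arrays. Between the CKO arrays the standard deviation over genes was 0.45 for the 8 assembly factors and 0.17 for the 71 structural subunits (without the tissue isoforms and Cox7a2l). It was 0.48 and 0.20 between the 4OHT arrays, 0.40 and 0.20 between the control arrays, and 0.23 and 0.16 between the EtOH arrays. The 3 measured tissue isoforms, subunits left out of this group, had 0.40, 0.29, 0.19 and 0.24 on the CKO, 4OHT, control and EtOH arrays. A wide spread was thus not seen in assembly factors alone. The assembly factors were also dimmer, with a median intensity of 82.8 against 551 for the other 75 members, and the part of signal level in their wider spread was not tested.

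Where a gene had more than 1 measured probe set, the further ones gave a check within the same arrays. This held for 41 members with 59 pairs of probe sets. The paired log2 differences lay a median of 0.13 apart between the CKO arrays, 0.11 between the 4OHT arrays, 0.18 between the control arrays and 0.12 between the EtOH arrays, against 0.18, 0.18, 0.23 and 0.18 over the 3630 pairs of all measured genes. They had opposite signs in 19, 20, 17 and 28 of the 59 pairs (32.2, 33.9, 28.8 and 47.5%), against 28.4, 26.1, 37.5 and 44.8% over all measured genes. The gaps were thus smaller than over all genes in each comparison, while opposite signs were more frequent in 3 of the 4. Ndufab1, the mitochondrial acyl carrier protein, was the member whose probe sets opposed each other, both past 0.32: the brighter measured 545 (EtOH) and 391 (4OHT) in control cells and 515 (EtOH) and 519 (4OHT) in CKO cells, and the dimmer 21.9, 31.3, 20.2 and 21.1. The brighter was lowest and the dimmer highest in control 4OHT. For Ndufa7, 1 further probe set of the _x_at type gave 0.69 between the 4OHT arrays, and the probe set that represents the gene gave 0.07.

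Other mitochondrial genes were set beside the members by list. Over all measured genes, 48.6% were below 0 between the CKO arrays, 47.8% between the 4OHT arrays and 56.6% between the control arrays, and the shares past 1.5-fold are those given above. The single mitochondrially encoded transcript named on the array, ND5 of complex I, measured 661 (EtOH) and 679 (4OHT) in control cells and 656 (EtOH) and 678 (4OHT) in CKO cells. Its differences lay between -0.01 and 0.05. Of 17 measured citric acid cycle genes, 0 passed 1.5-fold in the 4 comparisons of array pairs, and 14 were below 0 between the CKO arrays (median -0.14) and 15 between the control arrays (median -0.12). The matrix enzyme Idh2 measured 76.8, 106, 92.0 and 71.3 in the same order, so that 4OHT made 0.46 in control cells and -0.37 in CKO cells.

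Of 11 measured genes for electron carriers, quinone synthesis and subunits outside the symbol rule, 1 was lower and 0 were higher between the CKO arrays (median -0.21), and 0 passed in the other 3 pairs. The lower gene was Coq9, a lipid-binding protein of ubiquinone synthesis, with 105 (EtOH) and 79.8 (4OHT) in control cells and 104 (EtOH) and 63.7 (4OHT) in CKO cells (-0.70). Both 4OHT arrays were below both EtOH arrays. Cycs, the soluble cytochrome c, measured 552, 539, 480 and 645 in the same order, with 0.43 between the CKO arrays, and Cyc1, cytochrome c1 of complex III, measured 917, 824, 929 and 780, with -0.25.

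Of 22 further assembly factors, 1 was higher and 1 lower between the CKO arrays, 1 was higher between the 4OHT arrays, and 0 passed in the other 2 pairs. Sco2, a copper chaperone of complex IV, measured 87.4 (EtOH) and 60.4 (4OHT) in control cells and 78.0 (EtOH) and 131 (4OHT) in CKO cells. It was higher in CKO 4OHT by 0.75 and 1.11, and like Sdhaf1 it was highest in CKO 4OHT and lowest in control 4OHT. Its probe set is of the _s_at type, which matches transcripts of a family. Cox20, another chaperone of complex IV, measured 41.3, 32.5, 45.5 and 26.6 in the same order and was lower by -0.77 between the CKO arrays.

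Genes that make or import mitochondrial proteins had medians above 0 in both comparisons of CKO 4OHT, where the medians of the chain were just below 0. Of 74 measured genes of the mitochondrial ribosome, 14 were below 0 and 60 above 0 between the 4OHT arrays (median 0.22), with 4 higher, where 6.69% of all measured genes were, and 0 lower, where 6.07% were. Between the control arrays 60 were below 0 (median -0.15), with 0 higher (3.95% of all) and 6 lower (3.91% of all). These comparisons share the control 4OHT array. Between the CKO arrays, which do not include it, 49 of 74 were above 0 (median 0.08) and 0 passed 1.5-fold in either direction. Mrps25, of the small subunit, measured 85.9 (EtOH) and 56.4 (4OHT) in control cells and 66.9 (EtOH) and 99.4 (4OHT) in CKO cells, highest in CKO 4OHT. Mrps15 measured 164, 93.7, 124 and 135, lowest in control 4OHT.

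Of 19 measured import genes, 17 were above 0 between the CKO arrays (median 0.13, 0 past 1.5-fold) and 16 between the 4OHT arrays (median 0.22, 2 higher and 0 lower). Tomm40, the channel of the outer membrane, measured 112 (EtOH) and 106 (4OHT) in control cells and 122 (EtOH) and 174 (4OHT) in CKO cells, and Timm8a1, a chaperone of the space between the membranes, measured 173, 139, 155 and 213. Both were highest in CKO 4OHT. Of 12 measured regulators of mitochondrial biogenesis, 1 was lower between the control arrays and 0 passed in the other pairs. It was Tfb1m, which methylates mitochondrial ribosomal RNA, with 38.7, 25.03, 33.1 and 26.1 in the same order (-0.63).

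Of 4 measured genes tied to hypoxia and mitochondria, 2 were lower in CKO 4OHT against both CKO EtOH (median of the 4 -0.56) and control 4OHT (median -0.47). Bnip3, a receptor for the removal of mitochondria, measured 123 (EtOH) and 152 (4OHT) in control cells and 133 (EtOH) and 61.4 (4OHT) in CKO cells, with -1.12 and -1.31. Pdk1, which restrains the entry of pyruvate into the citric acid cycle, measured 117, 111, 117 and 73.2 in the same order, with -0.68 and -0.60. CKO 4OHT stood below the other 3 arrays for both genes. These downward steps were larger than those of any subunit of the chain by its representing probe set. Upward steps of 2 subunits exceeded the step of Pdk1, Cox6b2 between the CKO arrays (0.69) and Ndufa12 between the 4OHT arrays (0.75). A further probe set of Ndufb11 gave -0.75 against CKO EtOH, beyond the -0.68 of Pdk1.

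**Figure D4:**
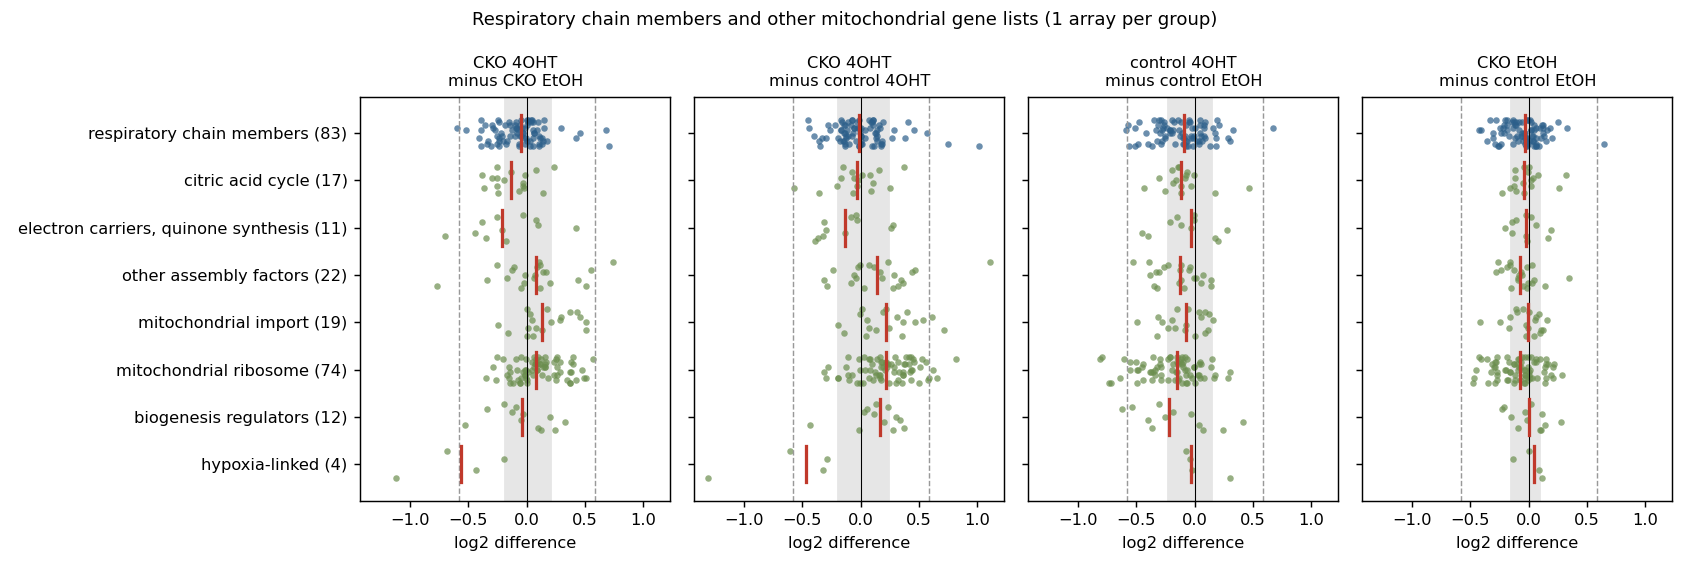
Log2 differences of the 83 measured members and of 7 other mitochondrial gene lists in the 4 comparisons of array pairs, with the number of measured genes in brackets. Points are genes, red ticks are medians, the grey band holds the middle 50% of all measured genes and dashed lines mark 1.5-fold. The members centre near 0 in each panel, the mitochondrial ribosome lies to the right of 0 between the 4OHT arrays, and the hypoxia-linked genes lie to the left of 0 in the panels of CKO 4OHT.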

How the data were processed

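Total RNA of 4 keratinocyte cultures, 1 per group, was labelled with a 3′ in vitro transcription kit and read on an Affymetrix 430A array, per the labels' protocols. The deposited table holds 1 linear intensity for each of 22626 probe sets and array (2.66 to 7167), made by the authors with RMA per the submitters' processing notes; its version is not stated. The method pulls arrays to like distributions (array medians 19.95 to 20.22), so a shift of most genes would be lost, and it compresses dim differences. They were used as log2, without pseudocount or added normalization.

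Symbols are those of the platform annotation (20380 probe sets name 1 gene, 691 several, 1555 none listed). The probe set with the highest mean represented a gene. For members it was a plain _at type in 46 cases, _a_at (variants of a gene) in 23, and _s_at or _x_at, which can bind other transcripts, in 18. Median intensities of gene groups describe signal on the array, not transcript abundance, and no single probe set's level was set against another's.

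With 1 array per group no test was possible, and the number of arrays limits precision. Named genes were members past 1.5-fold, the 4 highest and 4 lowest of each pair of arrays, the 2 brightest of each role, the isoforms, members with conflicting probe sets, and list genes past 1.5-fold (at most 3 each way) or, with none, the 2 brightest. Other names (Ndufa5, Ndufb11, Sdha, Atp5d, Cox7c, Idh2, Cycs and Cyc1) were added after their values were seen. Members and lists were chosen with earlier results of these data known. Promoters came from RefSeq, GRCm38.p6. Counting steps, in Python 3.11.15 with pandas 2.3.3 and numpy 2.4.6, were tested on simulated data.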

Additional observations from a re-analysis of the deposited data

Results flagged for a closer look

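Sdhaf1 and Ndufb1 drew attention because 4OHT moved them in opposite directions in CKO and control cells, each by more than 0.32 on the log2 scale. For Sdhaf1 the log2 difference was 0.71 in CKO cells and -0.57 in control cells, a difference of 1.28. For Ndufb1 it was 0.46 and -0.42, a difference of 0.88. The difference was not tested, since each value rests on 2 arrays. The same pattern in either direction was seen in 2 of 83 members (2.41%) and in 401 of 7463 measured genes (5.37%).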

How the results depend on the processing

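No paired analysis was possible because each group has 1 array and the labels give no replicate numbers, and for the same reason no replicate could be left out. The member median moved by less than 0.1 under each of the 9 alternatives, but that bar is wider than any of the main medians and so says little about stability. The median ranged from -0.08 to -0.04 between the CKO arrays, -0.05 to -0.01 between the 4OHT arrays and -0.11 to -0.04 between the control arrays. It ranged from -0.06 to 0.01 between the EtOH arrays and -0.05 to 0.05 for the difference of the drug effects, and in both of these its sign turned.

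The counts of members past the threshold are small, 3, 2, 2, 1 and 4 in these 5 comparisons, and moved with most settings. At 2-fold they were 0, 1, 0, 0 and 1, and at 0.32 on the log2 scale 13, 12, 14, 6 and 16. With a level filter at the 75th percentile the CKO, 4OHT, control and drug effect counts were each 1. With structural subunits alone these were 0, 1, 0 and 1. With the mean of all probe sets, or without _s_at, _x_at and _a_at probe sets, the 4OHT, control and EtOH counts were 1, 1 and 0. Centring or quantile normalization made the control count 1, and a pseudocount of 16 made the CKO count 0 and the control count 1. Of the named calls, Ndufa12 (0.24 and 0.04) and Sdhaf2 (0.34) were lost with the mean of probe sets, Sdhaf1 (0.52), Cox6b2 (0.37) and Ndufaf3 (-0.49) between the CKO arrays with the pseudocount, and Ndufaf7 with centring (-0.54), quantile normalization (-0.54) and the pseudocount (-0.44). No call reversed. Dim genes (Sdhaf1, Ndufb1, Cox6b2) have little signal over background, and the table has no detection calls.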
